A study of Mus musculus with 6 samples.

Results

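The 51 genes described here encode proteins that license origins of DNA replication, unwind the DNA and copy it at the fork. They were chosen by name, among 23366 rows that name a gene in the table, and all 51 were found there under the listed symbol. None dropped out at the filter on low counts, which left 10897 genes in all. The RNA came from CD4+ effector T cells (Teff) of the FVB/N strain background, which had been transferred into Rag-deficient hosts and were taken from the mesenteric lymph nodes 6 weeks later. Rag deficiency stops lymphocyte development, so the T cells in the nodes descend from the transferred ones. A sort on rhodamine 123 (Rh123), a fluorescent substrate of the efflux pump Mdr1, split the cells of both groups. Cells low in dye are named Mdr1+ and cells high in dye Mdr1-, with 3 libraries each, so that the 2 groups differ in dye efflux and share host, tissue and time. The comparison asks how the transcripts of effector cells with Mdr1 activity differ from those of cells without it.

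An origin is licensed before S phase. The origin recognition complex (ORC, Orc1 to Orc6) binds DNA and, with Cdc6 and Cdt1, loads the ring-shaped helicase made of Mcm2 to Mcm7; geminin (Gmnn) blocks Cdt1 so that an origin is not licensed again in the same cycle. At the start of S phase the kinase Cdc7 with its activator Dbf4, and Mcm10, help Cdc45 and the GINS complex join the helicase. DNA polymerases alpha, delta and epsilon then copy the strands, with the sliding clamp PCNA, its loader RFC and the single-strand binding protein RPA. Many of these genes are transcribed as cells pass from G1 into S phase, under E2F transcription factors, and resting T cells express them at low levels until they are activated.

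Promoter windows of these genes are shown first. Most members were lower in Mdr1+ cells, and E2F-type sites are the best known feature of their promoters. RefSeq windows (build GRCm38.p6), from 250 bases before to 50 bases after an annotated start, were at hand for 42 of the 51 genes, and some genes have more than 1 start. The words searched on both strands were TTTCCCGC, TTTCGCGC, TTTGCCGC and TTTGGCGC. Of the 42 members 16 (38.1%) held at least 1 of these words, against 2.61% of all 27025 genes with a window and 5.10% of the 8081 such genes that were also tested here. The words may overlap each other, as in the window of Mcm5, where TTTCGCGC and the reverse complement of TTTGGCGC share bases. A match is a string of letters, and binding was not measured. Only these exact words were counted, so a window without one may still hold a similar sequence, as those of Chaf1a and Prim1 do (TTCCCGCCAA). The 12 members shown here include all 8 with a word that passed the test described below. Gins3, Mcm8, Pold1 and Pold3 also hold a word, did not pass that test and are not shown. These are stretches around 1 word in each of the 12, 5′ to 3′ along the gene's strand, with the word in capitals (its reverse complement where it lies on the other strand):
Cdc6, chr11:98908002-98908031, plus strand: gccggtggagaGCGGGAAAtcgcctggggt
Mcm3, chr1:20820275-20820304, minus strand: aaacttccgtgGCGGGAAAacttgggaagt
Mcm5, chr8:75109345-75109374, plus strand: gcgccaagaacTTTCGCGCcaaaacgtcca
Mcm6, chr1:128359734-128359763, minus strand: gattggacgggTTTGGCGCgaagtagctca
Mcm7, chr5:138172030-138172059, minus strand: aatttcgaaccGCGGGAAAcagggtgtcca
Pola1, chrX:93632275-93632304, minus strand: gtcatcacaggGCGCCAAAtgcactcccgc
Pole2, chr12:69228162-69228191, minus strand: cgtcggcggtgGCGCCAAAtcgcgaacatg
Lig1, chr7:13278841-13278870, plus strand: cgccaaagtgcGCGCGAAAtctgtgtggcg
Orc1, chr4:108579416-108579445, plus strand: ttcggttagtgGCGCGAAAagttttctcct
Rfc3, chr5:151651200-151651229, minus strand: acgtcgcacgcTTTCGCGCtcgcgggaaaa
Cdt1, chr8:122568036-122568064, plus strand: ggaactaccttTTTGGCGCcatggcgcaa
Orc3, chr4:34614965-34614994, minus strand: ccatgcctcccTTTCCCGCacgccccgcct

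The whole 250 bases before the start are given for Cdc6, for Mcm6, whose window held 3 words, and for Mcm10. Mcm10 had the largest fall of the members, and its window held none of the words in full. Past the stretch given here, that window ended in TTTGGCG, which is TTTGGCGC without its last base. Sequence beyond the window was not searched, so a word cut by its edge would not be counted. Capitals again mark the words, 2 of which overlap in Mcm6:
Cdc6, chr11:98907901-98908150, plus strand: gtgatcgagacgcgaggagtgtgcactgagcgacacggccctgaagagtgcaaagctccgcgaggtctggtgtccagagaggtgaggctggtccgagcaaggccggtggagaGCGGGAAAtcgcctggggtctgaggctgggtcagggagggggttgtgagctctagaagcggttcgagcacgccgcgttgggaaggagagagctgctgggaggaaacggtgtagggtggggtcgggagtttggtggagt
Mcm6, chr1:128359706-128359955, minus strand: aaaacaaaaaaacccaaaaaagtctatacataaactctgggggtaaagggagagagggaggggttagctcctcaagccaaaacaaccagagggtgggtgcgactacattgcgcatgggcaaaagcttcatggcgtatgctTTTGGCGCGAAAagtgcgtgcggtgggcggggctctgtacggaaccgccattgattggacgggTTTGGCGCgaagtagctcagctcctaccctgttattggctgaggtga
Mcm10, chr2:5012792-5013041, minus strand: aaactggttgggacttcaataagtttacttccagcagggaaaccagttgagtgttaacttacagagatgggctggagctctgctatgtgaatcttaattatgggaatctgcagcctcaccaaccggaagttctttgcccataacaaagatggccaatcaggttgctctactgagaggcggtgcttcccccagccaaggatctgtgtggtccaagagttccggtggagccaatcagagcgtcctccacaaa

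Members with an E2F-type word had a median log2 fold change (Mdr1+ over Mdr1-) of -1.09 and the 26 without one -0.61, and over all tested genes with a window these medians were -0.09 and 0.05. Of the 16 with a word 8 passed the test described next, as did 9 of the 26 without. Cdt1 and Orc3 hold a word and had log2 fold changes of -0.08 and 0.04. The word CCAAT, bound by the factor NF-Y, stood in 61.9% of the 42 members, in 41.1% of all genes with a window and in 43.4% of those tested. Members with and without it had medians of -0.90 and -0.65. TTTGAA or TTCGAA, the words of the cell cycle homology region of late cell cycle promoters, stood in 23.8%, 21.7% and 16.3% of these sets. Members with and without these words had medians of -1.06 and -0.63. The differences between these medians were not tested.

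Depth differed between the libraries, from 2220691 counts in genes (Mdr1+ replicate 3) to 20771456 (Mdr1+ replicate 2), so that 3 counts, taken as the floor of detection, correspond to 1.41 and 0.14 CPM, a scale on which counts are divided by the library's total after TMM scaling. Such floors cover counting error only. The shallowest library was also apart from the rest in a principal component analysis of log2 CPM, on whose first axis it lay at 100.3 against -37.1 to -3.6 for the other 5. Nothing in the labels says whether replicates came from separate mice, so the p-values refer to the spread among the 6 libraries, which may be technical. Same-numbered libraries of the 2 groups deviated together from their group means, and values from a fit that includes this number as a block are given beside the main ones. Of 8 T cell markers 0 passed in edgeR or DESeq2 (0 at an unadjusted p under 0.05), and their summed level was 4067 to 4487 CPM in Mdr1- and 3893 to 4885 CPM in Mdr1+ libraries. Cd8a and Cd8b1 together stood at no more than 2.21 CPM in any library. Abcb1a, 1 of the mouse genes of Mdr1, stood at 72.9, 42.0 and 73.4 CPM in the Mdr1- libraries and at 177, 132 and 178 CPM in the Mdr1+ libraries.

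Other cell types left small traces. The 7 myeloid markers summed to 84.1 CPM in Mdr1- replicate 3 and to 0.421 to 6.13 CPM in the other 5 libraries. Of the 5 dendritic cell markers 3 were tested, with 0 past the threshold without the block, 2 lower in Mdr1+ cells with it, 1 lower in DESeq2 and 2 at an unadjusted p under 0.05. Their sum, mostly Cd74, was 56.9 to 77.1 CPM in Mdr1- and 22.8 to 45.3 CPM in Mdr1+ libraries, and Flt3 was at no more than 0.335 CPM. Of the stromal and endothelial markers Acta2 fell (4.35, 6.399 and 4.08 CPM in Mdr1- and 0, 0.28 and 0 CPM in Mdr1+ libraries, adjusted p = 0.018). Cdh5, at 1.79 to 2.42 against 0.327 to 0.472 CPM, did not overlap and passed in neither fit (adjusted p = 0.12, and 0.059 with the block), and Pecam1 stood at 115 to 190 CPM with overlap. The epithelial genes Krt18 and Epcam reached 5.43 and 8.02 CPM, with overlapping groups. Markers of other lymphocytes were higher in Mdr1+ libraries without overlap. Cd22, a surface protein of B cells, was at 4.24, 8.21 and 5.09 against 8.47, 21.6 and 8.96 CPM (adjusted p = 0.33, and 0.037 with the block). Klrb1c, an NK cell receptor gene, was at 8.13 to 14.6 against 14.96 to 20.8 CPM (adjusted p = 0.35, and 0.056 with the block). Cd79a was at 11.3 CPM in Mdr1+ replicate 3 and at 0.173 to 3.06 CPM elsewhere. Krt8, Krt19, Pdpn and Hbb-b1 had 0 counts in all 6 libraries. The part of these cells in the results below was not tested.

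Replication genes that passed the test were all lower in Mdr1+ cells. In edgeR's quasi-likelihood test with Benjamini-Hochberg adjustment over all 10897 genes, 21 of the 51 fell at an adjusted p under 0.05, against 1.95% of all genes tested. None of the 51 rose, against 0.275% of all genes, and 0 were higher at an unadjusted p under 0.05. With the block 33 fell, against 6.57% of all genes, and these included the 21, while 0 rose, against 5.81%. DESeq2 called 27 lower, against 3.50% of all genes, and 0 higher, against 1.04%. The fitted value was below 0 for 48 of the 51 (45.8% of all genes) and above 0 for 3, and the median was -0.89, a 1.86-fold difference, against 0.04 over all tested genes. Within pairs of the same replicate number the median log2 ratio was -0.72, -1.02 and -1.04. In bulk RNA, fewer cycling cells and less of these transcripts per cell cannot be told apart.

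Summed over the 51 genes, the level was 4281, 4821 and 4646 CPM in the Mdr1- libraries and 2582, 2371 and 2274 CPM in the Mdr1+ libraries, for replicates 1, 2 and 3. The groups did not overlap in this sum. Gene by gene, 37 of the 51 had all 3 Mdr1+ libraries below all 3 Mdr1- libraries, against 11.0% of all genes tested, and 42 were lower in each of the 3 pairs, against 24.6%. A single member, Mcm9, had all Mdr1+ libraries above all Mdr1- libraries, as did 949 of the 10897 genes tested. The count of 21 depended on the libraries: it was 10 without Mdr1- replicate 3 and 14 to 18 without any other single library. Without both libraries of replicate 3 it was 0, with 31 members and 904 of 11177 genes at an unadjusted p under 0.05. It was 39 once the block was added, when 12.1% of all genes were lower. Of the 21 calls 10 held in each of the 6 fits that leave out 1 library, namely Cdc6, Mcm2, Mcm3, Mcm5, Mcm10, Cdc45, Fen1, Lig1, Chaf1a and Asf1b.

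**Figure D1:**
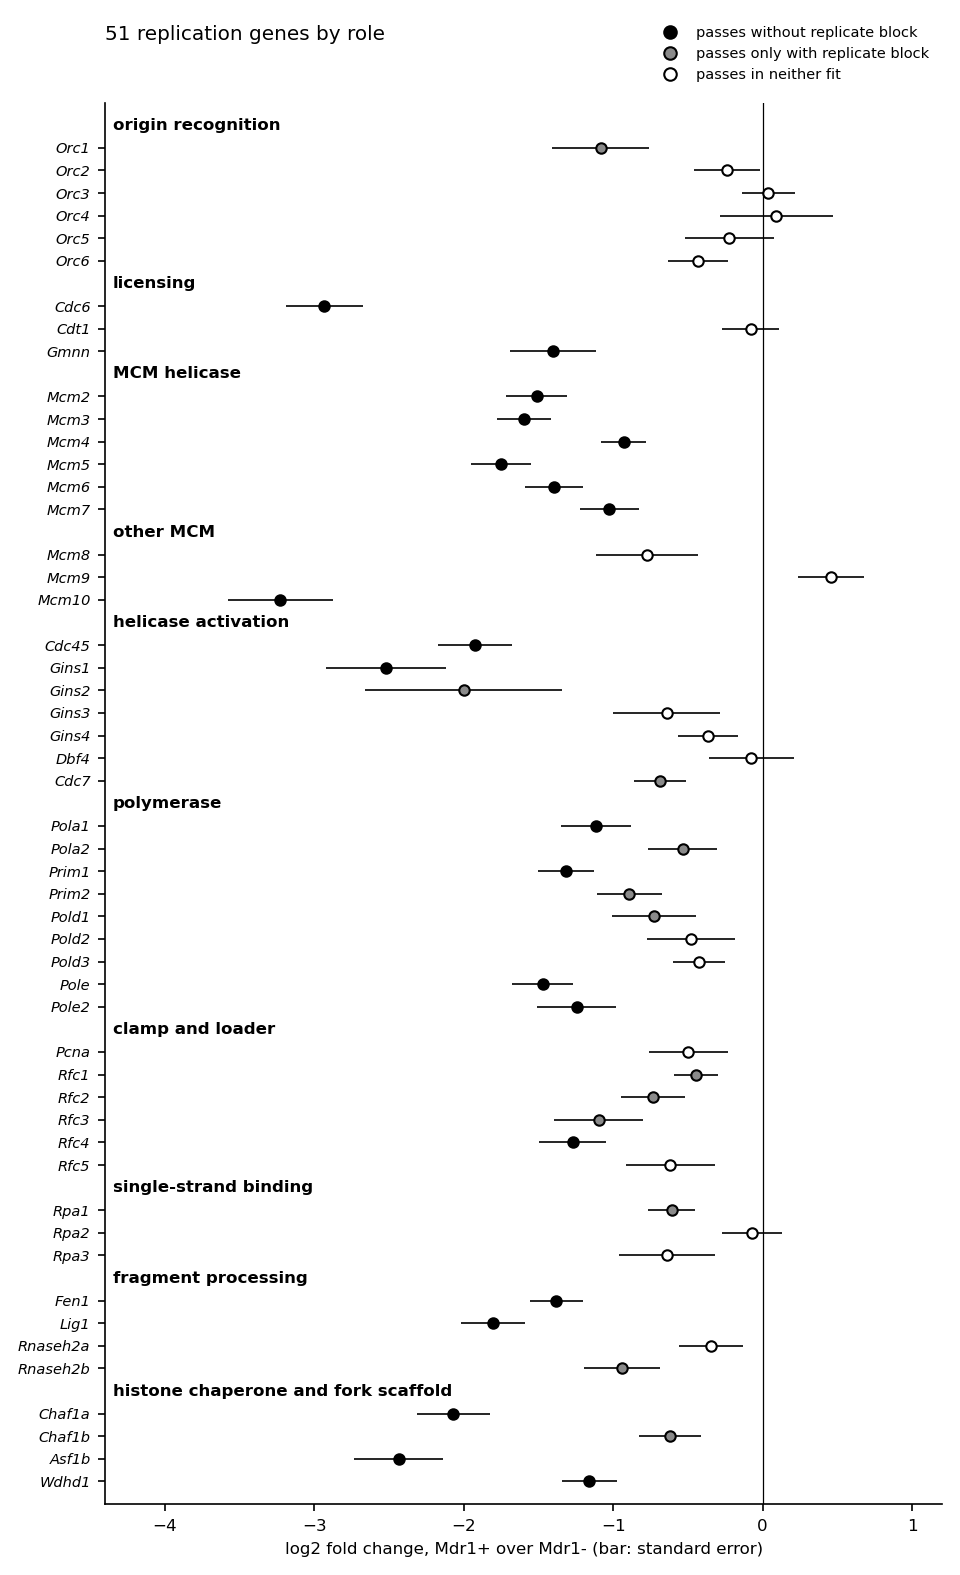
Fitted log2 fold change of Mdr1+ over Mdr1- (x axis, bars are standard errors, 3 libraries per group) of the 51 replication genes (y axis), ordered by role; black symbols pass in edgeR without the replicate block, grey ones only with it, and open ones in neither fit. The MCM helicase genes are all black, and of the origin recognition genes only Orc1 passes, with the block.

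Origin recognition genes differed least. Orc3, a core subunit, was at 68.4, 60.5 and 71.5 CPM in the Mdr1- libraries and at 60.1, 68.4 and 77.8 CPM in the Mdr1+ libraries. Its groups overlapped fully, with a log2 fold change of 0.04 ± 0.18. Orc2 (-0.24 ± 0.22), Orc4 (0.09 ± 0.38) and Orc5 (-0.22 ± 0.30) had overlapping groups too, and 0 of these 4 passed in edgeR with or without the block, in DESeq2 or at an unadjusted p under 0.05. Orc4 varied by replicate number, from 41.0 to 112 CPM within Mdr1- and from 59.5 to 121 CPM within Mdr1+ cells, lowest in replicate 2 of both. The sign of the fitted value turned when libraries were left out for Orc2, Orc3, Orc4 and Orc5.

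Orc1, the subunit whose level is known to rise towards S phase, stood apart from these. It was at 46.7, 31.9 and 48.7 CPM in Mdr1- and at 29.2, 13.1 and 17.9 CPM in Mdr1+ cells. The groups did not overlap, though the highest Mdr1+ and the lowest Mdr1- library lay close together, and the ratio within pairs was 1.60, 2.44 and 2.72 in favour of Mdr1-. The value of -1.08 ± 0.32 missed the threshold (adjusted p = 0.18) but passed with the block (adjusted p = 0.0072) in edgeR, and missed the threshold in DESeq2 (0.052). Without the block it passed in 1 of the 6 fits that leave out a library (0.047 without Mdr1+ replicate 1), with an adjusted p of up to 0.57 in the others. Orc6, the smallest and most loosely held subunit, had no overlap either, with its lowest Mdr1- library at 46.2 CPM and its highest Mdr1+ library at 43.2 CPM, and passed in neither fit (-0.43 ± 0.20, adjusted p = 0.45, and 0.082 with the block).

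The licensing factors split. Cdc6, the ATPase that joins ORC to load the helicase, was at 59.4, 51.5 and 66.2 CPM in Mdr1- and at 9.30, 5.80 and 8.96 CPM in Mdr1+ libraries. The lowest Mdr1- library was over 5 times the highest Mdr1+ library. On the log2 scale, Cdc6 fell by 2.93 ± 0.26 with an adjusted p of 0.0027, a 7.63-fold difference. Cdt1, its partner in loading, was at 107, 122 and 88.1 against 85.7, 99.2 and 116 CPM. Its groups overlapped fully, higher in Mdr1- in the pairs of replicates 1 and 2 and lower in that of replicate 3, and the log2 fold change was -0.08 ± 0.19 (adjusted p = 0.91). With the block and without replicate 3 it passed (-0.34, adjusted p = 0.029), so that its value rests on that pair.

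Gmnn, the Cdt1 inhibitor, was at 41.0, 55.7 and 34.8 CPM in Mdr1- and at 19.3, 18.6 and 10.4 CPM in Mdr1+ libraries, without overlap. It fell by 1.40 ± 0.29 (adjusted p = 0.041), and the call was lost on leaving out any of the 6 libraries (adjusted p = 0.0813 to 0.136), while it stood with the block (0.0017). The CPM ratio of Cdt1 to Gmnn was 2.60, 2.19 and 2.53 in Mdr1- and 4.45, 5.33 and 11.2 in Mdr1+ libraries. This ratio was picked with the values in view and is given as a description. The plot of levels by library sets these genes side by side.

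**Figure D2:**
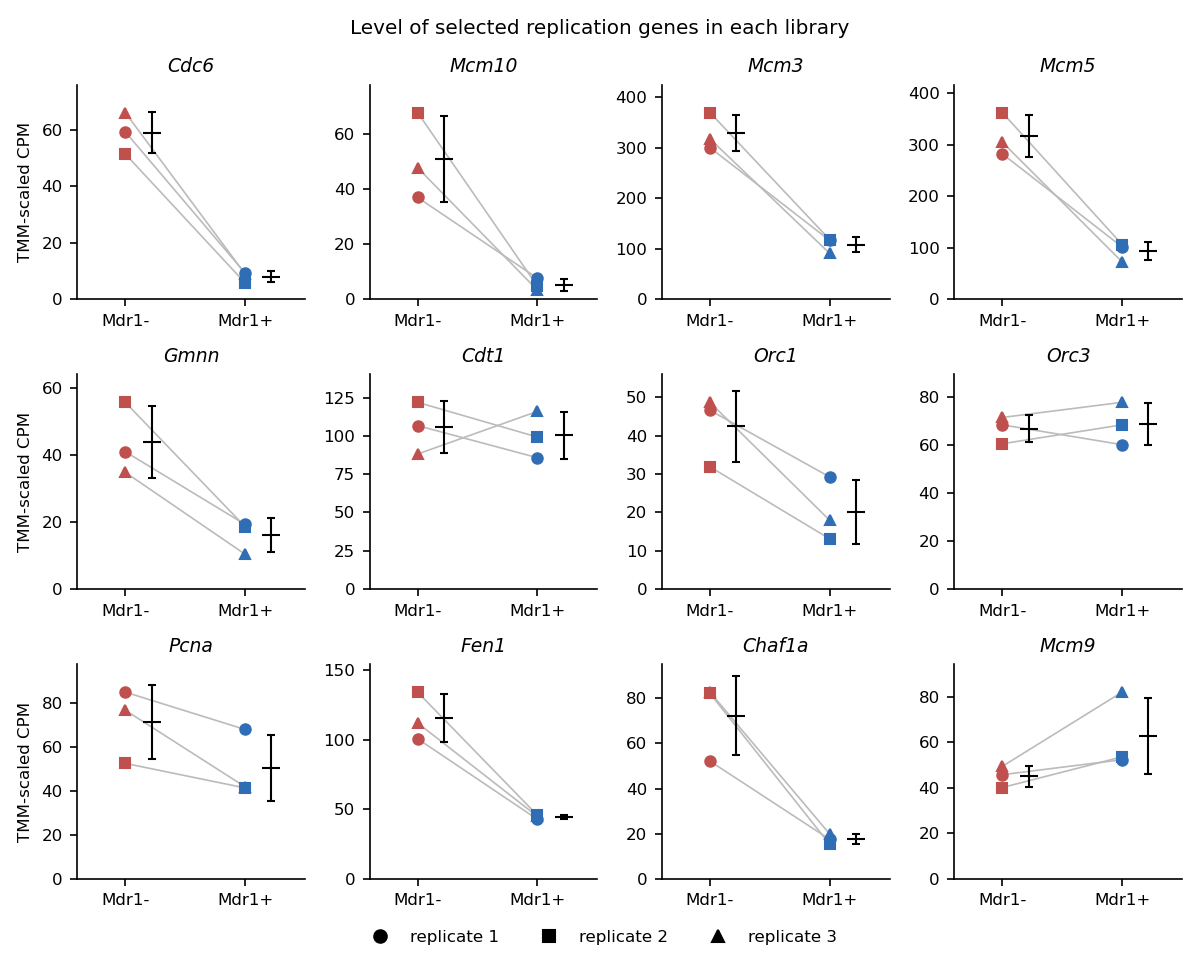
TMM-scaled CPM (y axes, linear from 0) of 12 members in the Mdr1- (red) and Mdr1+ (blue) libraries; symbols are replicate numbers, grey lines join libraries of the same number, and the black bars give each group's mean and SD (n = 3). Cdc6, Mcm10, Mcm3, Mcm5, Gmnn, Fen1 and Chaf1a are lower in Mdr1+ in every pair, while Cdt1 and Orc3 overlap and the Mdr1+ values of Mcm9 lie above its Mdr1- values.

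All 6 subunits of the replicative helicase fell. Mcm3 was at 300.2, 370 and 318 CPM in Mdr1- and at 116, 118 and 90.5 CPM in Mdr1+ libraries, and Mcm5 at 283, 363 and 305 against 102, 106 and 72.6 CPM. In both genes every Mdr1- library was at more than 2 times the level of every Mdr1+ library. Mcm5 had the largest fall of the ring (-1.75 ± 0.20, adjusted p = 0.0043), followed by Mcm3 (-1.60 ± 0.18, adjusted p = 0.0040) and Mcm2 (-1.51 ± 0.20, adjusted p = 0.0069). Mcm6 was at 334, 348 and 359 against 159, 133 and 101 CPM and fell by 1.40 ± 0.20 (adjusted p = 0.0079). Mcm4 and Mcm7 fell least, by 0.93 ± 0.15 and 1.03 ± 0.20 (adjusted p = 0.016 and 0.031). Mcm4 was the steadiest within groups, at 296, 285 and 299 against 162, 153 and 146 CPM. The call of Mcm7 was lost on leaving out any 1 library (adjusted p = 0.0648 to 0.115). That of Mcm6 was lost without Mdr1- replicate 3 (0.054), and that of Mcm4 without Mdr1- replicate 3 (0.11), Mdr1+ replicate 2 (0.061) or Mdr1+ replicate 3 (0.059). All 6 passed with the block, as they did without it, against 6.57% and 1.95% of all genes.

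Per kilobase of exon, helicase and ORC transcripts could be set on 1 scale, with lengths from the union of coding transcripts' exons in GENCODE M21. In Mdr1- cells Mcm3 was highest (109 ± 11.9 CPM per kilobase, SD, n = 3), then Mcm5 (91.7 ± 12.0), Mcm4 (81.7 ± 2.0), Mcm6 (79.3 ± 2.9) and Mcm2 (63.8 ± 6.6). Mcm4 and Mcm6 did not differ beyond their spread. Mcm7 was lowest at 30.6 ± 5.9. In Mdr1+ cells Mcm4 was highest (42.9 ± 2.3), then Mcm3 (35.7 ± 5.1), Mcm6 (30.0 ± 6.6), Mcm5 (27.1 ± 5.3), Mcm2 (22.2 ± 5.2) and Mcm7 (15.05 ± 1.5), and the values of Mcm6, Mcm5 and Mcm2 overlapped. Orc2 to Orc5 lay at 10.3 to 29.0 CPM per kilobase on average in Mdr1- and at 8.51 to 29.9 in Mdr1+ cells. Summed per length, Mcm2 to Mcm7 exceeded Orc2 to Orc5 by 5.40, 8.33 and 5.37 times in the Mdr1- libraries and by 2.37, 2.77 and 2.14 times in the Mdr1+ libraries.

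**Figure D3:**
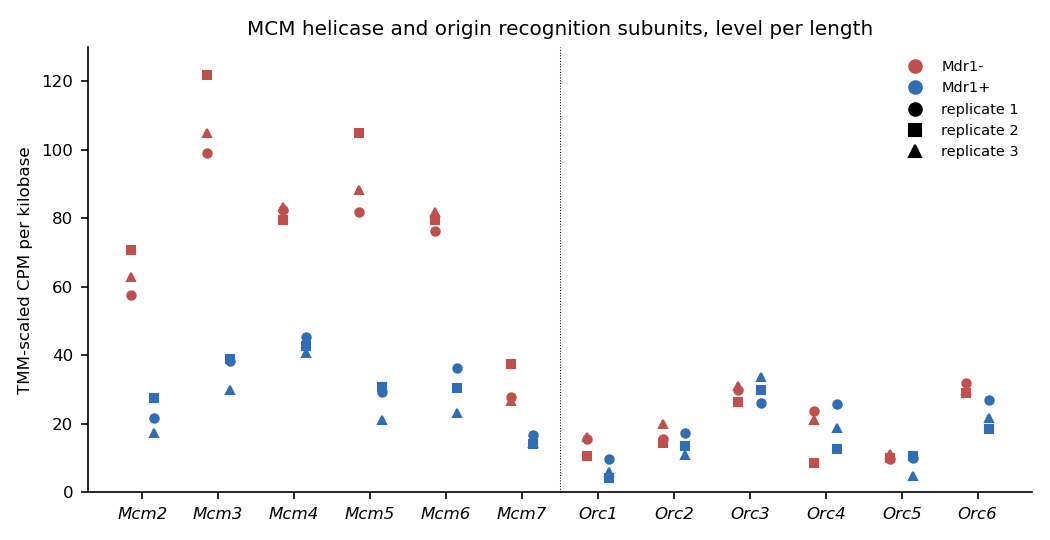
TMM-scaled CPM per kilobase of exon (y axis, linear from 0) of the helicase subunits Mcm2 to Mcm7 and the origin recognition subunits Orc1 to Orc6 (x axis) in each library, Mdr1- in red and Mdr1+ in blue, symbols by replicate number. Every Mdr1+ value of a helicase gene lies below every Mdr1- value of that gene, whereas Orc2 to Orc5 overlap.

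The other genes that carry the MCM name behaved unlike each other. Mcm10, a fork protein that is not part of the ring, was at 37.1, 68.0 and 47.9 CPM in Mdr1- and at 7.64, 4.77 and 3.30 CPM in Mdr1+ libraries. It had the largest fall of the 51 (-3.23 ± 0.35, adjusted p = 0.0038, a 9.36-fold difference), although the ratio within the first pair, 4.85, was well below the 14.3 and 14.5 of the other two. Mcm8 and Mcm9 form a separate helicase used in recombination repair. Mcm8 was the lowest member in Mdr1- cells, at 7.64 to 10.4 CPM against 4.24 to 5.98 CPM in Mdr1+ cells, and did not pass (-0.77 ± 0.34, adjusted p = 0.42, and 0.14 with the block). Mcm9 was at 45.8, 40.1 and 49.4 CPM in Mdr1- and at 52.3, 53.6 and 82.1 CPM in Mdr1+ libraries. Although Mcm9 was higher in every pair, it passed in neither fit (0.46 ± 0.22, adjusted p = 0.47, and 0.082 with the block).

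Of 7 genes that turn a loaded helicase into an active one, 2 fell without the block and 4 with it. Over all genes tested 1.95% and 6.57% fell. Cdc45, which joins the ring to form the moving helicase, was at 50.8, 57.8 and 67.4 against 20.1, 12.4 and 13.7 CPM. With no overlap, it fell by 1.93 ± 0.25 (adjusted p = 0.0058). The 4 GINS subunits, which act as 1 complex, differed. Gins1 was at 11.6, 14.7 and 14.9 against 2.99, 2.57 and 0.943 CPM and fell by 2.52 ± 0.40 (adjusted p = 0.015). The lowest of these values is 2 reads, below the floor, and the call was lost without Mdr1- replicate 2 (0.054) or Mdr1- replicate 3 (0.097). Gins2 was at 11.5, 22.8 and 9.17 against 4.65, 4.72 and 0 CPM, the last with 0 counts, which allows up to 1.41 CPM at that depth. It missed the threshold without the block (adjusted p = 0.24) and passed with it (-2.15 ± 0.48, adjusted p = 0.020) and in DESeq2 (0.030). Gins3 (-0.64 ± 0.36) overlapped between groups and Gins4 (-0.37 ± 0.20) did not, and both passed in neither fit.

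The kinase that fires origins showed a split as well. Cdc7, the catalytic subunit, was at 58.2, 65.5 and 61.5 CPM in Mdr1- and at 41.9, 38.4 and 34.0 CPM in Mdr1+ libraries. The groups lay apart with little spread, and the log2 fold change was -0.69 ± 0.17. Cdc7 passed with the block (adjusted p = 0.013) and in DESeq2 (0.024) but not in edgeR without the block (0.10). Dbf4, its activator, was at 105, 80.2 and 99.8 against 136, 65.0 and 68.4 CPM. The Mdr1+ library of replicate 1 was the highest of all 6, and the log2 fold change of -0.08 ± 0.29 did not pass and turned to 0.12 without Mdr1+ replicate 2 and to 0.08 without Mdr1+ replicate 3.

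Polymerase genes were lower to different degrees, with 4 of 9 past the threshold without the block and 7 with it, and 9 of 9 lower in every pair. Over all genes tested these shares were 1.95%, 6.57% and 24.6%. Pole, the catalytic subunit of polymerase epsilon, was at 93.6, 123 and 141 against 40.0, 40.1 and 49.5 CPM. It fell by 1.47 ± 0.20 (adjusted p = 0.0077), and the call was lost without Mdr1- replicate 3 (0.051). Its second subunit Pole2 fell by 1.25 ± 0.27 (adjusted p = 0.049), a call lost on leaving out any 1 library (adjusted p = 0.080 to 0.28). Pola1, the catalytic subunit of polymerase alpha, was at 159, 138 and 198 against 95.4, 56.1 and 77.3 CPM and fell by 1.12 ± 0.23 (adjusted p = 0.045). That call was lost without Mdr1- replicate 1 (0.077), Mdr1- replicate 3 (0.22), Mdr1+ replicate 2 (0.12) or Mdr1+ replicate 3 (0.13).

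Primase makes the RNA primers that polymerase alpha extends. Prim1, its catalytic subunit, was at 59.8, 63.3 and 65.5 CPM in Mdr1- and at 26.9, 21.8 and 27.8 CPM in Mdr1+ libraries. The 2 groups were tight and far apart, and Prim1 fell by 1.31 ± 0.19 (adjusted p = 0.0081, and 0.064 without Mdr1- replicate 3). Prim2, the large subunit, missed the threshold in edgeR without the block (-0.89 ± 0.22, adjusted p = 0.090). It passed with the block (0.011) and in DESeq2 (0.0099). Pola2 (-0.54 ± 0.23) and Pold1 (-0.73 ± 0.28), the catalytic subunit of polymerase delta, passed only with the block (adjusted p = 0.034 and 0.0067). Pold1 ran with replicate 2 in both groups, at 49.3, 87.1 and 59.1 against 28.9, 50.9 and 37.3 CPM, so that the groups overlapped while the ratio within pairs was 1.71, 1.71 and 1.59. Pold2 (-0.48 ± 0.29) and Pold3 (-0.43 ± 0.18) passed in neither fit.

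Among the clamp and its loader 1 of 6 genes fell without the block and 4 with it, against 1.95% and 6.57% of all genes. Pcna, the sliding clamp, was at 85.2, 52.7 and 76.9 CPM in Mdr1- and at 68.1, 41.5 and 42.0 CPM in Mdr1+ libraries. The groups overlapped although each pair had the same direction, and neither fit called it (-0.50 ± 0.26, adjusted p = 0.52, and 0.060 with the block). The annotation lists the pseudogenes Pcna-ps1 and Pcna-ps2, and reads that also match such copies may be missing from this count, so its level is uncertain. Rfc4 was at 26.6, 28.0 and 29.5 against 12.1, 11.4 and 11.3 CPM and fell by 1.27 ± 0.22 (adjusted p = 0.022). Its call remained only without Mdr1+ replicate 3 and was lost on leaving out any other library (adjusted p = 0.071 to 0.15). Rfc1, the large subunit, had little spread within groups, at 120, 124 and 131 against 89.7, 91.4 and 94.3 CPM, and passed with the block only (-0.45 ± 0.15, adjusted p = 0.24 and 0.018). Rfc2 (-0.73 ± 0.21) passed with the block only (adjusted p = 0.0054), and Rfc5 (-0.62 ± 0.30) in neither fit. Rfc3 (-1.10 ± 0.30) missed the threshold in the main fit (adjusted p = 0.13). It passed with the block (0.020), in DESeq2 (0.018) and in edgeR without the filter on low counts.

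RPA coats single-stranded DNA at the fork and in repair. Rpa1, its large subunit and the most abundant member by CPM, was at 345, 386 and 361 CPM in Mdr1- and at 232, 224 and 262 CPM in Mdr1+ libraries. The groups did not overlap, and the log2 fold change of -0.61 ± 0.16 passed with the block (adjusted p = 0.0036) and in DESeq2 (0.0069) but not in edgeR without the block (adjusted p = 0.11). Rpa2 was at 115, 132 and 109 against 121, 131 and 83.5 CPM, with overlap and a log2 fold change of -0.07 ± 0.20 (adjusted p = 0.93). Rpa3, at 19.2 to 23.1 against 8.02 to 19.4 CPM, passed in neither fit (-0.64 ± 0.32).

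Of 4 genes that finish the lagging strand 2 fell without the block and 3 with it, against 1.95% and 6.57% of all genes. Lig1, the ligase that seals Okazaki fragments, was at 87.2, 140 and 123 CPM in Mdr1- and at 34.1, 35.4 and 30.2 CPM in Mdr1+ libraries. Fen1, the flap nuclease that trims them, was at 101, 134 and 112 against 42.7, 45.6 and 44.8 CPM. In both genes the Mdr1+ libraries lay within a few CPM of each other while the Mdr1- libraries spread. Lig1 fell by 1.80 ± 0.21 (adjusted p = 0.0044) and Fen1 by 1.38 ± 0.18 (adjusted p = 0.0058). Of the RNase H2 subunits, which remove ribonucleotides from DNA, the catalytic Rnaseh2a did not pass in either fit (-0.34 ± 0.21). Rnaseh2b missed the threshold in edgeR without the block (-0.94 ± 0.25, adjusted p = 0.13). It passed with the block (0.025) and in DESeq2 (0.028).

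Chromatin is rebuilt behind the fork by histone chaperones. In this group 3 of 4 genes fell without the block and 4 with it, against 1.95% and 6.57% of all genes. Asf1b, a chaperone of histones H3 and H4 that is tied to proliferation, was at 52.0, 88.2 and 70.0 CPM in Mdr1- and at 15.6, 14.0 and 7.55 CPM in Mdr1+ libraries. Chaf1a, the large subunit of chromatin assembly factor 1 (CAF-1), was at 52.1, 82.1 and 82.7 against 17.4, 15.2 and 19.8 CPM. Asf1b fell by 2.44 ± 0.30 (adjusted p = 0.0052) and Chaf1a by 2.07 ± 0.24 (adjusted p = 0.0043). Chaf1b, its partner in CAF-1, was at 39.3, 49.8 and 43.5 against 29.2, 24.3 and 34.0 CPM and passed only with the block (-0.62 ± 0.21, adjusted p = 0.25, and 0.0498 with it). The CPM ratio of Chaf1a to Chaf1b was 1.33, 1.65 and 1.90 in Mdr1- and 0.597, 0.627 and 0.583 in Mdr1+ libraries, a ratio chosen after the values were seen. Wdhd1, which links the helicase to polymerase alpha, fell by 1.16 ± 0.18 (adjusted p = 0.014), a call lost without Mdr1- replicate 3 (0.097) or Mdr1+ replicate 2 (0.054).

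**Figure D4:**
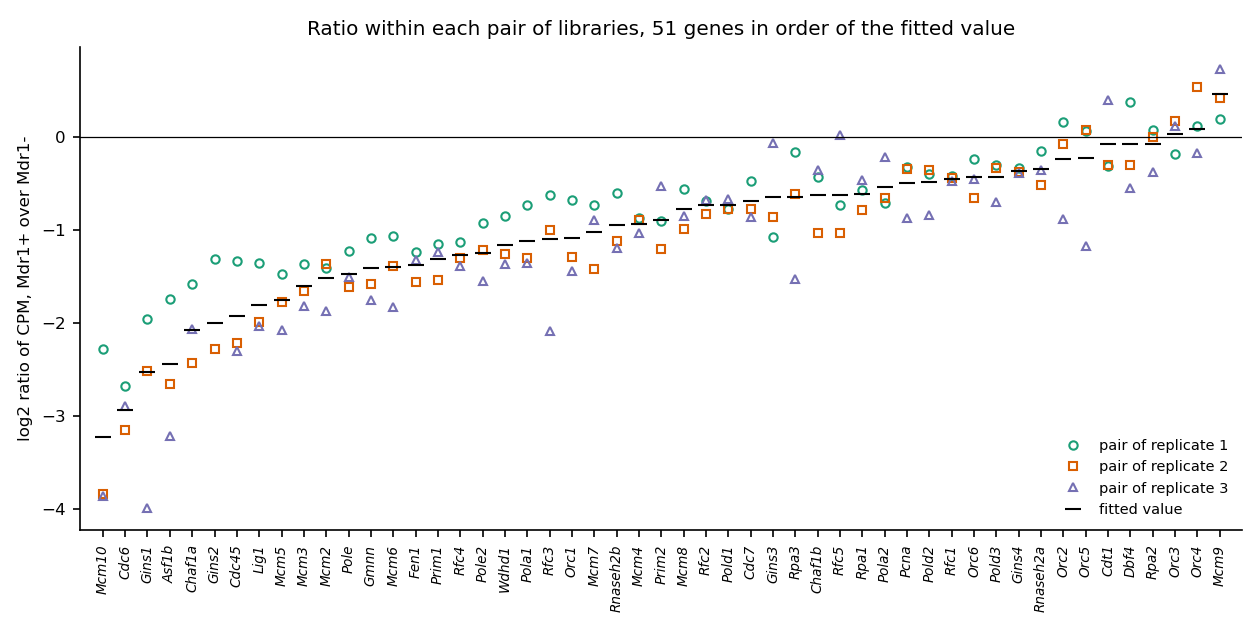
Log2 ratio of CPM, Mdr1+ over Mdr1-, within each pair of libraries of the same replicate number (open symbols) and fitted value (black bars), for the 51 genes in order of the fitted value (x axis); the third pair of Gins2 is not drawn because its Mdr1+ library had 0 counts. The first pair lies nearest to 0 for most genes with large falls, and the genes whose 3 pairs differ in sign all lie in the right part of the plot.

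The size of the difference also varied by pair. For Cdc6 the ratio of Mdr1- to Mdr1+ was 6.38, 8.89 and 7.39, for Asf1b 3.33, 6.29 and 9.27, and for Cdc45 2.53, 4.65 and 4.93. For Mcm4 it was 1.82, 1.86 and 2.05 and for Rfc1 1.33, 1.36 and 1.39, with hardly any spread. Among the 18 members that passed in neither fit, 9 were lower in all 3 pairs, against 24.6% of all genes tested, called or not.

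Beyond the members, 42 other replication genes were listed, all of which were tested (Primpol under its older symbol Ccdc111). Of these 13 fell without the block, against 1.95% of all genes, and 25 with it, against 6.57%. Without the block 0 rose, against 0.275%, and with it 1 rose, against 5.81%. DESeq2 called 18 lower, against 3.50%, and 0 higher, against 1.04%. At an unadjusted p under 0.05 without the block 1 was higher, against 505 of all 10897 genes. Their median log2 fold change was -0.53. Among those that passed without the block, the largest falls were in 2810417H13Rik (Pclaf in the RefSeq table), which encodes a PCNA-binding protein (-3.43 ± 0.28), Dna2, a nuclease and helicase (-2.41), Fbxo5, an inhibitor of the anaphase-promoting complex (-2.25), the checkpoint kinase gene Chek1 (-2.24), Uhrf1, which recognises half-methylated DNA (-2.24), the topoisomerase gene Top2a (-2.16), Clspn, a fork checkpoint mediator (-2.07), and Atad5, which unloads PCNA (-1.82). Their adjusted p-values were 0.0027 for 2810417H13Rik, 0.0049 for Dna2, 0.0088 for Fbxo5, 0.010 for Chek1, 0.013 for Uhrf1, 0.0038 for Top2a, 0.028 for Clspn and 0.019 for Atad5. Of the genes that did not pass, the most abundant were Top2b (-0.16 ± 0.25), Ddb1 (-0.27 ± 0.15), Topbp1 (-0.59 ± 0.19) and Ssrp1 (-0.39 ± 0.18), of which Topbp1 and Ssrp1 passed with the block (adjusted p = 0.0046 and 0.023). Atr, a kinase of the replication checkpoint, was the 1 that rose with the block (0.52, adjusted p = 0.017) and was chosen after its values were seen.

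Replication genes lay between all genes and genes of mitosis. Of 20 listed mitosis genes 16 fell, against 1.95% of all genes. With the block 19 fell, against 6.57%, and DESeq2 called 19 lower, against 3.50%. Their median was -2.54. Pair medians were -1.84, -3.17 and -2.24, against -0.72, -1.02 and -1.04 for the 51 replication genes. This difference between the lists was not tested. Bub1, a spindle checkpoint kinase gene, fell by 3.10 ± 0.34 (adjusted p = 0.0038), from 56.8 ± 13.9 to 6.25 ± 2.92 CPM (SD, n = 3). Ccnb1 (-3.74, adjusted p = 0.035) and Plk1 (-3.10, adjusted p = 0.023) completed the 3 largest falls of that list. Ccnb1 had 7, 6 and 0 counts in the Mdr1+ libraries, its value ranged from -5.26 to -2.98 over the alternatives, and its call held in 1 of the 6 fits without 1 library. That of Plk1 ranged from -3.99 to -2.54, and its call held in 2 of the 6. Among the replication genes 6 had a fitted value more than 4-fold lower, against 1.79% of all genes. These were Mcm10, Cdc6, Gins1, Asf1b and Chaf1a, which passed the test, and Gins2, which lay at the 4-fold mark. Gins2 passed with the block and in DESeq2 but not in edgeR without the block. Mki67, a marker of cycling cells, fell by 2.54 ± 0.25 (adjusted p = 0.0037). Of the 51 only Mcm10 and Cdc6 had larger fitted falls. Gins1 (-2.52 ± 0.40) and Asf1b (-2.44 ± 0.30) did not differ from Mki67 beyond these standard errors.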

How the data were processed

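The deposited values are raw counts per gene symbol, and the authors' tools TopHat, HTSeq and DESeq2 and the build mm9 are named, without versions, per the submitters' processing notes. Which annotation and strand setting the counting used is not given in the sources used here. HTSeq's rows of unassigned reads, filled for replicates 1 and 2, named no gene and were removed first. Of the entries of these libraries, 67.0% to 73.2% were reads that mapped to several places and 13.2% to 19.7% reads outside any feature.

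The 2 columns of replicate 3 stand in case-insensitive order of the gene names while the names stand in case-sensitive order, so their counts were re-assigned before any test. As deposited, their Spearman correlations with the other 4 libraries across genes were 0.424 to 0.460; re-assigned, 0.926 to 0.962, against 0.957 to 0.969 among those 4. Of the 51 members 39 changed row, and orders that ignore hyphens or punctuation moved 0 of them.

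Counts were tested with edgeR 4.0.16 (R 4.3.3): filterByExpr, TMM scaling, robust dispersions and a quasi-likelihood F test of the group alone, at an adjusted p of 0.05. Fold changes are Mdr1+ over Mdr1-, as log2 value ± standard error (the log2 value over the root of F). CPM are TMM-scaled. The fits were tried on simulated counts that had the same dispersion for every gene and no replicate effect. Changes were planted only in well-covered genes, so the simulation says nothing about replicate effects or genes of few counts. Same-numbered libraries had correlated deviations from their group means (0.41, 0.57 and 0.21), all above 0.1, so the numbers were taken to pair them; the labels do not state a pairing. Alternatives were the replicate block, DESeq2 1.42.0, RLE scaling, no filter, the deposited order, and fits that leave out libraries. All members were named. Of other replication genes the 8 largest falls that passed and up to 4 of the largest rises that passed (there were 0) were named. The 4 most abundant that did not pass were named too, and of mitosis genes the 3 largest falls that passed. Members and lists were chosen with earlier results of these data known. Promoters are RefSeq's on GRCm38.p6, not the build of the counts, and exon lengths are from GENCODE. The sum of the B cell markers is not reported here.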

Additional observations from a re-analysis of the deposited data

How the results depend on the processing

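Scaling by RLE changed no call of a member, and leaving out the filter added Rfc3. With the replicate block 33 members fell in place of 21, and over all genes 716 fell and 633 rose in place of 212 and 30; with DESeq2 these were 27, 381 and 113, and without the filter 52 genes rose. With replicate 3 as deposited, 0 members and 0 genes in either direction passed in edgeR (7 members and 108 genes at an unadjusted p under 0.05). Fits without 1 library or 1 replicate number gave 0 to 18 members lower, 0 to 196 genes lower and 0 to 15 higher. The lowest of these came without replicate 3. With the block, in fits added after the data were seen, members lower, genes lower and genes higher were 32, 694 and 436 without replicate 1, 23, 392 and 259 without replicate 2, and 39, 1347 and 1131 without replicate 3. The members' median stayed between -1.03 and -0.73 in all these leave-out fits.

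In the leave-out fits without the block, the sign turned for 7 members with main values near 0: Orc2 (-0.53 to 0.0257), Orc3 (-0.0598 to 0.0872), Orc4 (-0.24 to 0.33), Orc5 (-0.45 to 0.0442), Cdt1 (-0.34 to 0.0408), Dbf4 (-0.55 to 0.12) and Rpa2 (-0.21 to 0.0803), and for Cd4 (-0.00531 to 0.0532) and Top2b (-0.40 to 0.0055). With the block it turned without replicate 2 for Orc3 (-0.0376), Orc4 (-0.0185) and Cdt1 (0.0257), and without replicate 3 for Orc2 (0.00527), Orc3 (-0.0217), Orc5 (0.0379), Dbf4 (0.00439) and Rpa2 (0.00611). The causes were not tested. The depth of Mdr1+ replicate 3 limits genes of a few CPM, such as Gins1 and Gins2.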
